A study of Mus musculus with 11 samples.

Results

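The genes described here are 9 imprinted genes that are known for their part in fetal growth: Igf2, H19, Dlk1, Cdkn1c, Peg3, Mest, Plagl1, Grb10 and Igf2r. Their probes were found through the RefSeq accession that the array design gives each probe, and 13 of the 41174 probes were matched, for 8 of the 9 genes. No probe was matched to H19, so no value is given for it. Of 17427 genes with a matched probe, 13774 were tested, and 12 of the 13 member probes were tested.

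Imprinted genes are expressed mainly from the allele of 1 parent, under the control of DNA methylation laid down in the germline. Genes expressed from the paternal allele, such as Igf2, Dlk1, Peg3, Mest and Plagl1, tend to promote fetal growth, while the maternally expressed H19, Cdkn1c, Igf2r and, in most tissues, Grb10 tend to restrain it. In the fetal adrenal gland Igf2 and Dlk1 are abundant in the capsule and in immature cells, and Cdkn1c is expressed in the growing cortex. A hybridisation signal sums both alleles, so the arrays say nothing of which allele was read.

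Sorted cells of fetal mouse adrenal glands were compared between 7 wild-type (Star+/+) and 4 knockout (Star-/-) mice at ages labelled E17.5-18.5. Star encodes the protein that moves cholesterol to the inner mitochondrial membrane, where steroid synthesis starts. In both genotypes the cells had been sorted for eGFP, a green fluorescent reporter (its promoter: not given in the sources used here), and amplified RNA of 1 mouse was hybridised to each single-colour array. The wild-type mice were labelled 3 male and 4 female, and the knockout mice 4 male.

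Wild-type arrays 1 and 2 lay on slide 1 beside knockout arrays 1 and 2. On slide 2, wild-type array 3 lay beside knockout arrays 3 and 4, and slide 3 carried wild-type arrays 4 to 7. With slide as a term in the model, each genotype difference therefore rests on 4 knockout and 3 wild-type arrays, and slide 3 adds only to the estimate of the spread. A level is the log2 processed signal minus the 75th percentile of its array, and it belongs to its own probe. The precision is limited by the number of arrays.

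Some arrays stood apart from the rest. Wild-type array 3 was the dimmest, with a 75th percentile of 115 signal units where the others had 166 to 706, and its median correlation with the others, 0.877, was the lowest of the 11. Wild-type array 4 was labelled female, but its level of the Y-linked gene Ddx3y, 2.70, lay among those of the arrays labelled male, 2.26 to 3.32, while wild-type arrays 3, 5 and 6 had −5.27, −6.20 and −6.74. In 2466 genes with a pair of probes, the share whose gap between the probes lay over 1 log2 unit from its median gap over the arrays was 47.4% on wild-type array 3, 42.4%, 36.9% and 33.6% on wild-type arrays 5, 6 and 7, and 5.72% to 12.4% on the other arrays. The labelled cell type was checked on 11 adrenocortical markers, of which 10 or 11 were well above background on every array. Cyp21a1, the steroid 21-hydroxylase, was not well above background on wild-type arrays 3, 5, 6 and 7 and on knockout array 3. The mean level of these markers was 4.50 to 5.45 on wild-type arrays 1 to 4, 2.09 to 2.82 on wild-type arrays 5 to 7 and 2.22 to 3.63 on the knockout arrays. In sorted bulk cells, fewer cells of a type and less RNA per cell cannot be told apart.

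Star itself was checked first. Its probe A_51_P274436 had levels of 5.87, 7.04, 7.86, 7.49, 3.84, 3.21 and 4.95 on wild-type arrays 1 to 7 and of 1.58, 2.59, 2.05 and 3.27 on knockout arrays 1 to 4. The wild-type array with the lowest level, array 6, lay just under knockout array 4, and the other wild-type arrays lay above all knockout arrays. The second probe, A_52_P165654, fell by 5.38 ± 0.91 (SE; limma, adjusted p = 0.0367), and the first differed by −4.70 ± 0.93 (adjusted p = 0.0583). The deleted part of the gene was not given in these sources.

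No member probe passed the threshold. Of 25882 probes tested, 149 passed a Benjamini-Hochberg adjusted p of 0.05 in limma, 0.576% of them, with 0.464% higher in the knockout arrays and 0.112% lower. Of the 12 member probes 0 did. At an unadjusted p under 0.05 there were 2 of 12, Cdkn1c and a dim probe of Igf2, and the same count over all probes tested was 17.2%. The 12 fitted differences, knockout minus wild-type, were positive for 8 and negative for 4, with a median of 0.57. The median over all probes tested was −0.12. No shared rise is read from this, because the signs leaned on wild-type array 3, which had the lowest wild-type level for 7 of the 12. With that array left out, Peg3 (A_52_P235861) turned negative, at −0.29, as did the tested Grb10 probes, at −0.51 and −0.21. Mest turned positive, at 0.39. The median over all probes tested was then −0.053. Genes with more than 1 tested probe also count more than once. Only 6 of the 12 had the same sign within slide 1 and within slide 2. By the number of arrays alone the comparison was coarse: in simulated data with this design the share of changed probes that the fit called was 0% at 2-fold, 7.46% at 4-fold and 40.9% at 8-fold. A difference that missed the threshold is therefore not shown to be absent. Where an array was not well above background for a probe, a bound was taken by raising its level to the lowest level well above background on that array, or keeping the probe's own level where that was higher.

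**Figure D1:**
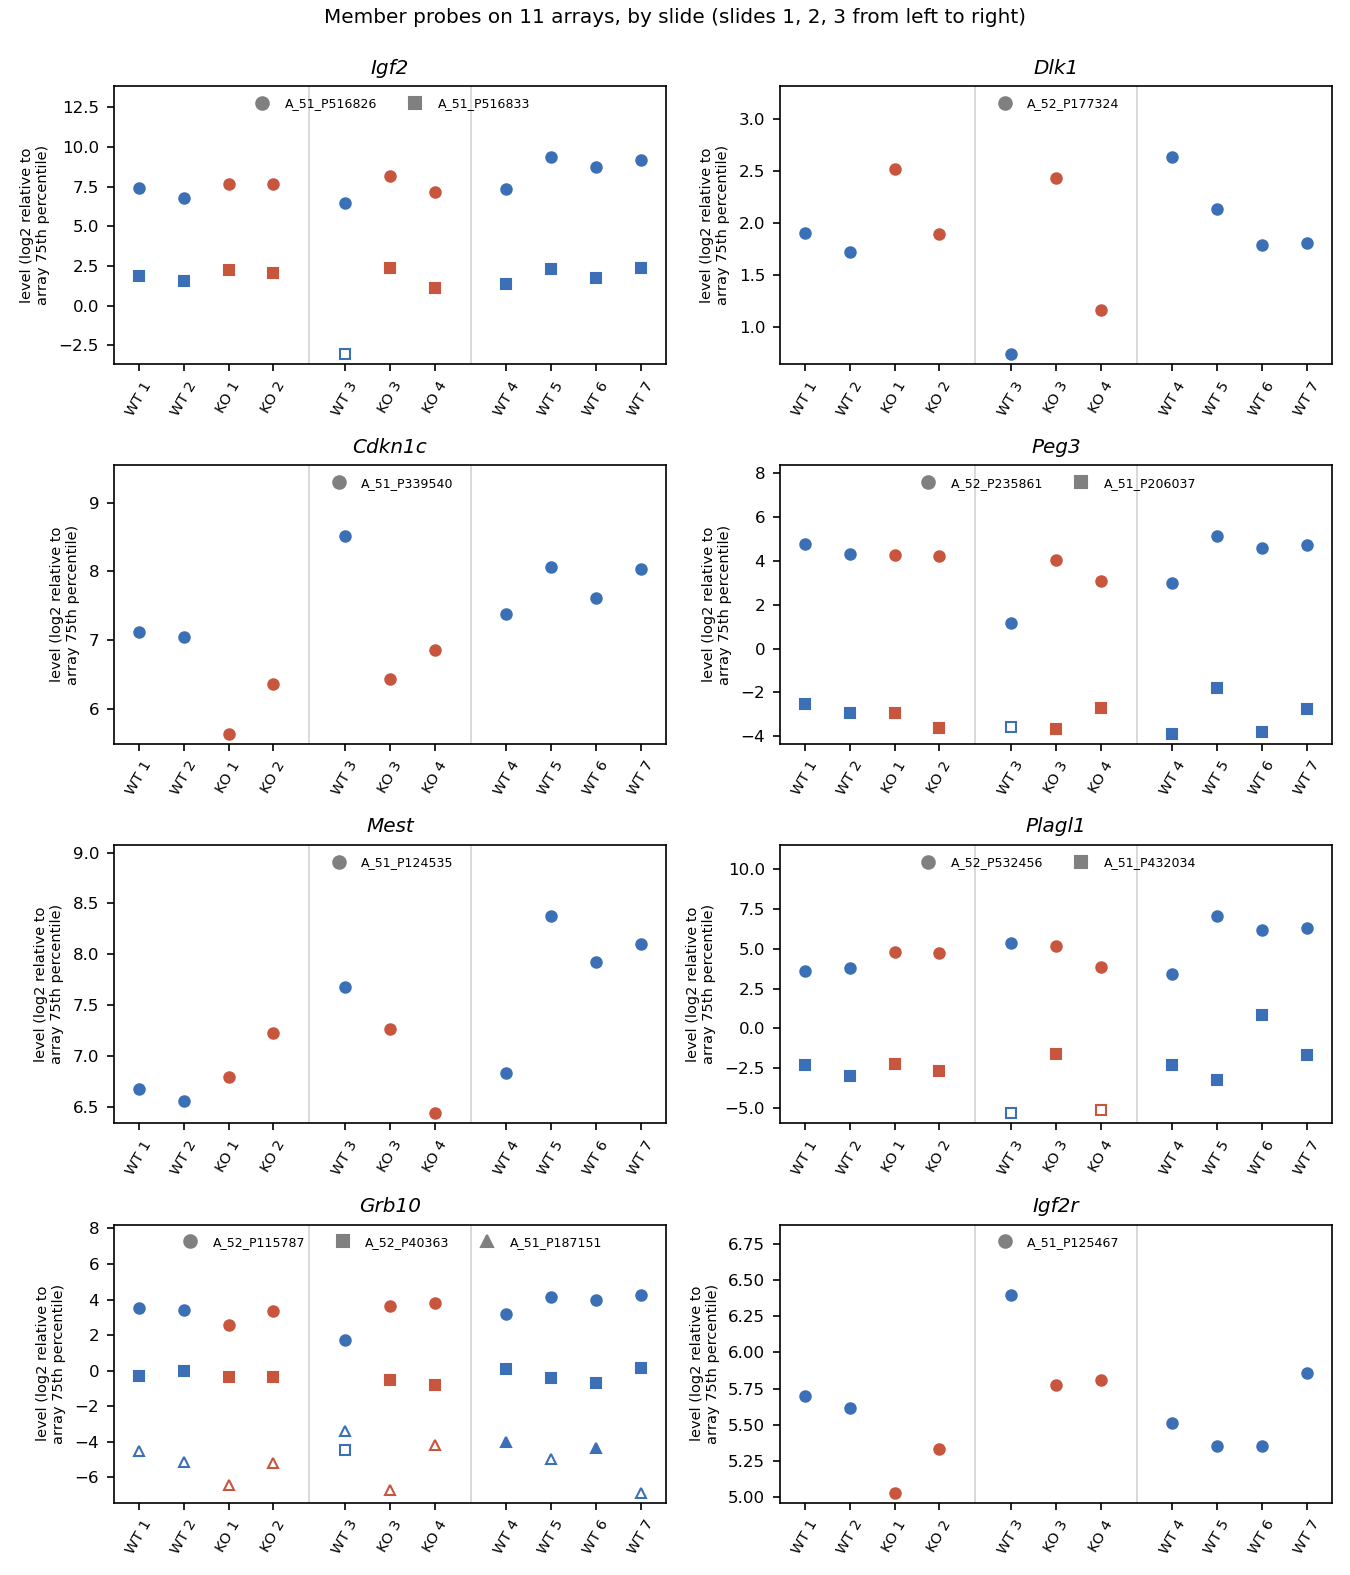
Level of each member probe (log2 signal relative to the 75th percentile of its array, vertical axis, own scale in each panel) on each of the 11 arrays, with wild-type (WT) in blue and knockout (KO) in red and vertical lines between the 3 slides. Open symbols were not well above background; the 4 knockout arrays of Cdkn1c, 5.64 to 6.85, lie under all 7 wild-type arrays, 7.05 to 8.51, while in the other 7 panels the genotypes overlap.

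Cdkn1c was the member whose genotypes did not overlap, 1 of 12 member probes, where 7.11% of all probes tested had no overlap in either direction. It encodes p57Kip2, an inhibitor of cyclin-dependent kinases that holds cells out of the cell cycle. Its single probe, A_51_P339540, was well above background on all 11 arrays and had levels of 7.12, 7.05, 8.51, 7.38, 8.06, 7.62 and 8.03 on wild-type arrays 1 to 7. On knockout arrays 1 to 4 it had 5.64, 6.37, 6.43 and 6.85. Every knockout array lay below every wild-type array, as it did for 2.79% of all probes tested, and the gap between knockout array 4 and wild-type array 2 was the narrowest.

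The fitted difference of Cdkn1c was −1.40 ± 0.36 (SE; 95% interval −2.21 to −0.58), or 2.63-fold lower in the knockout arrays, with an unadjusted p of 0.00333 in limma. It missed the threshold over all probes, with an adjusted p of 0.115. Slide 1 alone gave −1.08 and slide 2 alone −1.87, where wild-type array 3 was the only wild-type array. Without that array it was −1.08, with an adjusted p of 0.755. Relative to the median of all probes the difference was −1.27. It was negative under all 30 alternatives, between −1.87 and −1.02, with adjusted p between 0.00897 and 0.755, and 1 of them, with arrays weighted by their estimated quality, passed.

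Macrophage markers moved with the genotype and therefore with the level of Cdkn1c. The mean of 11 such markers was 0.55 to 2.92 on the wild-type arrays and 5.31 to 6.02 on the knockout arrays, and 10 or 11 of them were well above background on every array. Of this list 3 of 11 rose in limma: Trem2 by 3.92 (adjusted p = 0.0156), Lyz1 by 4.48 (adjusted p = 0.0223) and Gpnmb (adjusted p = 0.00412). Of all 13774 named genes taken by 1 probe each, 85 rose past the threshold. Gpnmb was well above background on 2 of 7 wild-type arrays and was tested only through its knockout levels. Its p therefore adds no support, and its rise is given as a bound, at least 7.01 on the log2 scale. Mean adrenocortical markers, 2.22 to 3.63 on the knockout arrays, were lower there than on wild-type arrays 1 to 4 but overlapped the 2.09 to 2.82 of wild-type arrays 5 to 7, where Cdkn1c was at 8.06, 7.62 and 8.03. Mean chromaffin markers were −2.42 to −0.51 on the knockout arrays and −0.63 to 2.52 on the wild-type arrays. The part of these markers in the difference of Cdkn1c was not tested.

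**Figure D2:**
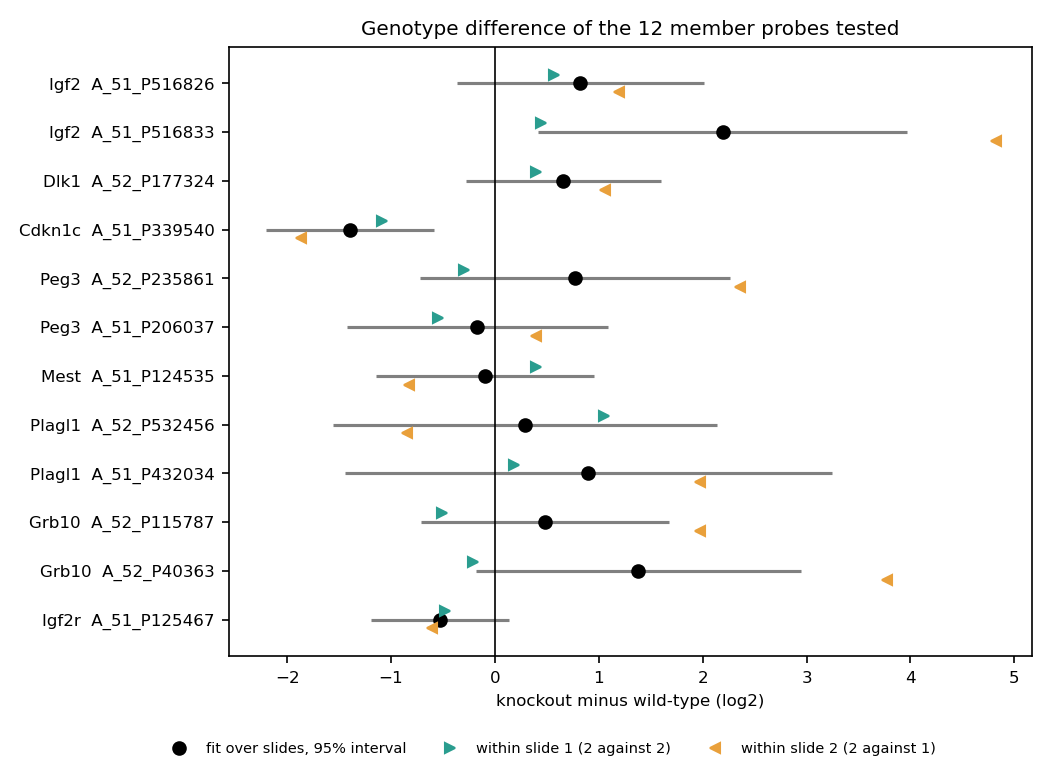
Knockout minus wild-type difference (log2) of the 12 member probes tested: the black point and bar are the limma fit with its 95% interval, and the triangles are the differences within slide 1 (2 against 2 arrays) and within slide 2 (2 against 1). The fitted interval of Cdkn1c, −2.21 to −0.58, and that of the Igf2 probe A_51_P516833, 0.42 to 3.97, leave out 0. For the latter the slides differ, with 0.44 and at least 4.82. The wild-type array of slide 2 was not well above background for A_51_P516833, A_51_P206037, A_51_P432034 and A_52_P40363.

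Igf2 encodes the main insulin-like growth factor of fetal life, a secreted peptide that acts through the type 1 receptor. Its probe A_51_P516826 was printed 10 times on each array, and the SD of those spots was between 0.034 and 0.099 on the log2 scale. The levels on wild-type arrays 1 to 7 were 7.41, 6.78, 6.48, 7.34, 9.38, 8.71 and 9.18. On knockout arrays 1 to 4 they were 7.67, 7.66, 8.20 and 7.16. Wild-type arrays 5 to 7 were the highest of all, wild-type array 3 was the lowest, and the knockout arrays lay between.

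The genotype difference of this probe was 0.82 ± 0.53 (SE; 95% interval −0.36 to 2.01; limma, adjusted p = 0.449), with 0.57 within slide 1 and 1.20 within slide 2. Without the slide term, which brings in the high arrays of slide 3, it was −0.22. The second probe, A_51_P516833, was at −3.08 and not well above background on wild-type array 3, at 1.38 to 2.35 on the other wild-type arrays and at 2.21, 2.08, 2.38 and 1.11 on knockout arrays 1 to 4. Its fitted difference, 2.19 ± 0.80 (95% interval 0.42 to 3.97, limma, adjusted p = 0.216), rests on that array. Within slide 2 the difference of this probe is given as a bound, at least 4.82. On wild-type array 3 the gap between the Igf2 probes was 9.56, where the other 10 arrays had 5.24 to 7.07. No least rise of Igf2 follows from the bound, and the first probe gave 1.20 within slide 2. Within slide 1, and so without wild-type array 3, the difference of A_51_P516833 was 0.44.

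Igf2r encodes the receptor that carries IGF2 to lysosomes for breakdown. Its probe A_51_P125467 had levels of 5.70, 5.62, 6.39, 5.51, 5.36, 5.36 and 5.86 on wild-type arrays 1 to 7 and of 5.03, 5.33, 5.78 and 5.81 on knockout arrays 1 to 4. The genotypes overlapped, and wild-type array 3 was the highest. The range over the 7 wild-type arrays was narrow, with an SD of 0.36. The difference was −0.53 ± 0.30 (SE; 95% interval −1.20 to 0.14; limma, adjusted p = 0.394), with −0.48 within slide 1 and −0.60 within slide 2. All 30 alternatives kept it negative, between −0.63 and −0.20, and 0 passed.

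Grb10 encodes an adaptor that binds the insulin and type 1 insulin-like growth factor receptors and dampens their signal. The brightest of its 3 probes, A_52_P115787, was at 3.50, 3.42, 1.73, 3.21, 4.13, 3.95 and 4.24 on wild-type arrays 1 to 7. On knockout arrays 1 to 4 it was at 2.55, 3.34, 3.62 and 3.80. Knockout array 1 was low among its group and wild-type array 3 was the lowest of all. The difference was 0.49 ± 0.53 (adjusted p = 0.666), and it was −0.51 within slide 1 and 1.98 within slide 2.

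The Grb10 probe A_52_P40363 ran from −0.80 to −0.36 on the knockout arrays and from −0.68 to 0.18 on the wild-type arrays other than array 3, where it was at −4.44 and not well above background. Its fitted difference of 1.38 ± 0.70 (adjusted p = 0.347) rests on that array. It was −0.21 within slide 1 and, as a bound, at least 2.44 within slide 2, and with the bound in the fit it was 0.85. The remaining Grb10 probe, A_51_P187151, was well above background on 2 of 7 wild-type arrays, 4 and 6, and on 0 of 4 knockout arrays. It was not tested and no fold is given.

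Dlk1 encodes a transmembrane protein with repeats like those of the Notch ligands, and it marks immature cells in many tissues. Its probe A_52_P177324 had levels of 1.91, 1.72, 0.74, 2.63, 2.14, 1.79 and 1.81 on wild-type arrays 1 to 7 and of 2.52, 1.90, 2.43 and 1.17 on knockout arrays 1 to 4. Wild-type array 4 was the highest and wild-type array 3 the lowest, and the genotypes overlapped. The difference of 0.66 ± 0.42 (SE; 95% interval −0.28 to 1.60; limma, adjusted p = 0.444) was positive within slide 1, at 0.40, and within slide 2, at 1.06. It was positive under all 30 alternatives, between 0.18 and 1.06, and passed under 0.

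Mest, which encodes a protein of the alpha/beta hydrolase fold, was well above background on all arrays. Its probe A_51_P124535 was at 6.68, 6.56, 7.68, 6.84, 8.38, 7.93 and 8.10 on wild-type arrays 1 to 7 and at 6.80, 7.22, 7.27 and 6.44 on knockout arrays 1 to 4. As with Igf2, wild-type arrays 5 to 7 were the highest. The difference of −0.09 ± 0.47 (95% interval −1.14 to 0.96; limma, adjusted p = 0.940) had no settled direction, with 0.39 within slide 1 and −0.83 within slide 2, and it turned positive under 8 of 30 alternatives.

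Plagl1, also called Zac1, encodes a zinc finger transcription factor that has been named as a regulator of a network of imprinted genes. Its probe A_52_P532456 was at 3.62, 3.79, 5.36, 3.42, 7.09, 6.18 and 6.35 on wild-type arrays 1 to 7 and at 4.78, 4.73, 5.17 and 3.85 on knockout arrays 1 to 4. Wild-type arrays 5 to 7 were again the highest, with wild-type array 4 of the same slide the lowest. The difference of 0.29 ± 0.83 (adjusted p = 0.885) was 1.05 within slide 1 and −0.85 within slide 2. The dimmer probe, A_51_P432034, ran from −5.34 to 0.82 in wild-type and from −5.12 to −1.60 in knockout arrays, and differed by 0.90 ± 1.05 (adjusted p = 0.686). It was not well above background on wild-type array 3 and knockout array 4, so its difference has no bound on either side, and with both raised it was 0.27.

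Peg3 encodes a zinc finger protein that has been linked to fetal growth and maternal behaviour. Its probe A_52_P235861 was at 4.79, 4.31, 1.18, 2.97, 5.12, 4.61 and 4.70 on wild-type arrays 1 to 7 and at 4.28, 4.24, 4.03 and 3.06 on knockout arrays 1 to 4. Wild-type arrays 3 and 4 were low and the rest of that genotype lay above the knockout arrays. The difference of 0.77 ± 0.67 (adjusted p = 0.576) was −0.29 within slide 1 and 2.36 within slide 2. The second probe, A_51_P206037, ran from −3.90 to −1.82 in wild-type and from −3.66 to −2.71 in knockout arrays and differed by −0.17 ± 0.56 (adjusted p = 0.902). It was not well above background on wild-type array 3, and with that level raised the difference was −0.36.

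Several of these differences rested on wild-type array 3. Of the 12 tested probes it was the lowest wild-type array for 7 and the highest for 2, Cdkn1c and Igf2r. Because it is the only wild-type array of slide 2, the difference within that slide is the difference from this array. It was labelled female and the knockout arrays of that slide male, so genotype and sex cannot be told apart within slide 2. All arrays of slide 1 were labelled male. Without wild-type array 3, and so from slide 1 alone, Peg3 (A_52_P235861) was at −0.29, Mest at 0.39 and the 2 tested Grb10 probes at −0.51 and −0.21, each with the opposite sign to the fit over all arrays.

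Within slide 3, where all arrays were wild-type, 8 of the 12 member probes were lower on wild-type array 4 than on each of arrays 5 to 7, as were 27.8% of all probes tested. They were both probes of Igf2 and of Peg3, those of Mest and Cdkn1c, and the brightest probes of Plagl1 and Grb10. Igf2 (A_51_P516826) was at 7.34 on wild-type array 4 and at 8.71 to 9.38 on arrays 5 to 7, Mest at 6.84 and at 7.93 to 8.38, and Plagl1 (A_52_P532456) at 3.42 and at 6.18 to 7.09. Grb10 (A_52_P115787) was at 3.21 and at 3.95 to 4.24, Peg3 (A_52_P235861) at 2.97 and at 4.61 to 5.12, and Cdkn1c at 7.38 and at 7.62 to 8.06. Igf2, Mest, Plagl1 and Grb10, by their brightest probes, were higher on arrays 5 to 7 than on all other arrays of the study, 4 of 12 probes beside 6.82% of all probes tested. Star went the other way, at 7.49 on array 4 and 3.21 to 4.95 on arrays 5 to 7. Igf2r and Dlk1 did not share the pattern: Dlk1 was highest on array 4, at 2.63, and the level of Igf2r on array 4, 5.51, lay within the 5.36 to 5.86 of arrays 5 to 7.

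Probe agreement and several marker lists of other cells, though not all, moved with this spread. The share of genes whose pair of probes lay over 1 log2 unit from the usual gap was 6.81% on wild-type array 4 and 33.6% to 42.4% on arrays 5 to 7. Over 12 markers of capsule and mesenchyme the mean level was 1.96 on wild-type array 4 and 3.90 to 4.62 on wild-type arrays 5 to 7, with 10 to 11 of them well above background on each wild-type array. Over 11 markers of chromaffin cells, the catecholamine-producing cells of the medulla, it was −0.63 on array 4 and 2.02 to 2.52 on arrays 5 to 7, and −2.42 to −0.51 on the knockout arrays. Over 6 markers of Schwann cell precursors it was −2.14 on array 4 and 0.84 to 1.65 on arrays 5 to 7. Macrophage markers were at 0.55 on array 4 and 1.38 to 2.43 on arrays 5 to 7, and endothelial markers at 0.31 and 0.68 to 2.23. Erythroid markers went the other way, at −0.14 on array 4 and −1.45 to −1.02 on arrays 5 to 7. Markers of liver and kidney lay on both sides, at −0.67 on array 4 and −3.32 to 0.94 on arrays 5 to 7. The part of any of these in the levels of the members was not tested.

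**Figure D3:**
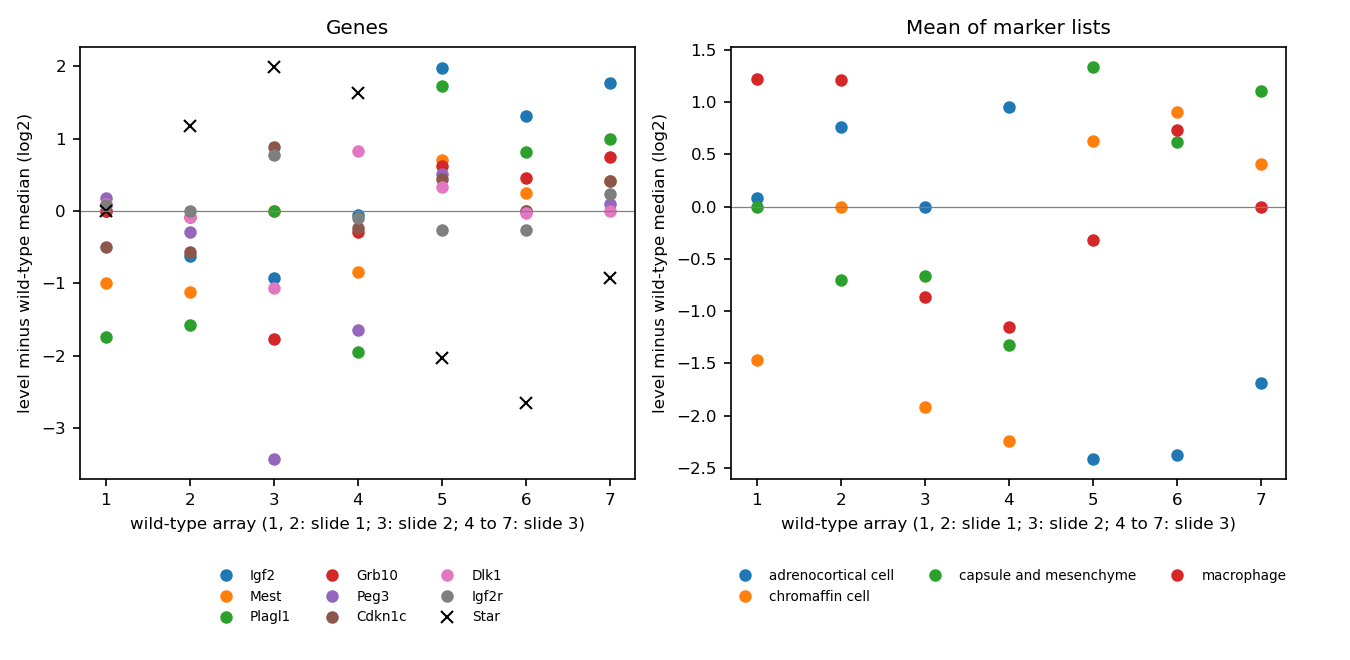
Levels on the 7 wild-type arrays minus the median over them (log2, vertical axis): on the left, the 8 members with a probe (circles, brightest probe) and Star (crosses), and on the right, the mean of 4 marker lists. Igf2, Mest, Plagl1 and Grb10 lie above their medians on arrays 5 to 7, where Star and the adrenocortical markers lie below theirs and the markers of capsule and mesenchyme above.

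The genes whose probes followed Igf2 most closely over the 11 arrays, after slide means were subtracted, were Runx1t1 (r = 0.987), Col3a1 (r = 0.987) and Col5a1 (r = 0.985), among 11456 probes well above background on every array. Col3a1 and Col5a1 encode fibrillar collagens, and Col3a1 is also in the list of capsule and mesenchyme markers. For Dlk1 they were Fbln1, which encodes the matrix protein fibulin, at r = 0.968, Myl12b at 0.928 and Rce1 at 0.913. These correlations describe 11 arrays that share slides and brightness, and they carry no test.

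The upstream sequences of the 4 genes that were highest together on wild-type arrays 5 to 7, and of Peg3, which holds a motif given below them, were read from RefSeq (GRCm38.p6). Each is the 250 bases before an annotated start, 5′ to 3′ on the strand of the gene. CpG dinucleotides, at which DNA can be methylated, are in capitals. The windows were not chosen as the regions that carry the imprints. Where a gene has several starts, the window with the most CpG was taken for Igf2 and Grb10, and for Mest the first of 2 overlapping windows that share the most CpG. The median over 32851 such windows of the table was 6 CpG.
Igf2 (chr7:142658805-142659054, minus strand): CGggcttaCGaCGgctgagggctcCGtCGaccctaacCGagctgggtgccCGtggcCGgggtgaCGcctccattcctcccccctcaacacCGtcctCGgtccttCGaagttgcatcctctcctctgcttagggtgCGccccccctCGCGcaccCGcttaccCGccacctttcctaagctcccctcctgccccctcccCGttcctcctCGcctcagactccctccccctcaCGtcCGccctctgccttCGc
Mest (chr6:30737800-30738049, plus strand): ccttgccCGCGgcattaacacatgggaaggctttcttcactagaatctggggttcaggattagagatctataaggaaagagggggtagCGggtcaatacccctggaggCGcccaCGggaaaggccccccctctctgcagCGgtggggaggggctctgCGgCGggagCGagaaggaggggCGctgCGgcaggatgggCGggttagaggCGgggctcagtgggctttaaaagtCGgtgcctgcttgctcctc
Plagl1 (chr10:13090582-13090831, plus strand): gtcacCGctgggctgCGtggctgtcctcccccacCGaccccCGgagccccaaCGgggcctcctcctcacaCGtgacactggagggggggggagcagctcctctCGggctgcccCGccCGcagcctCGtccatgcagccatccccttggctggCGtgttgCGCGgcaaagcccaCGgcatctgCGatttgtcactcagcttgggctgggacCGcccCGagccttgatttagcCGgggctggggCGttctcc
Grb10 (chr11:12037421-12037670, minus strand): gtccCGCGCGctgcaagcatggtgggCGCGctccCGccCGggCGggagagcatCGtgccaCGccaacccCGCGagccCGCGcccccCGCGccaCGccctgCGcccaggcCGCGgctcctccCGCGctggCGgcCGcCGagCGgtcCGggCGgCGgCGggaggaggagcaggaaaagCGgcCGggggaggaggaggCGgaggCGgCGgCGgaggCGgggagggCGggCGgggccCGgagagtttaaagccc
Peg3 (chr7:6730420-6730669, minus strand): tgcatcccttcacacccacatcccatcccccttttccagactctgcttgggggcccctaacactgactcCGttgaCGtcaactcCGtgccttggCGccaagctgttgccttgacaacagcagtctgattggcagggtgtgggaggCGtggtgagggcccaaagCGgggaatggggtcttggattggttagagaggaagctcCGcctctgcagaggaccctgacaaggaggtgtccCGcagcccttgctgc

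The Grb10 window held 40 CpG, Igf2 22, Plagl1 19, Mest 14 and Peg3 8. The windows not shown held 1, 10 and 6 for Igf2, 8 for Grb10, and 7 and 14 for Mest. The median of 6 was taken over windows not chosen by their CpG, so the chosen windows are not set against it evenly. The palindrome GGGGCCCC, a core sequence bound by PLAGL1, was searched on both strands and found in 292 of 32851 windows, 0.889%. Among the windows of the members it was found in that of Peg3, 201 bases before the start. AAGGTCA, the core of the site of the steroidogenic factor NR5A1, whose reverse is TGACCTT, was found in 4.08% of windows and in 0 of the member windows. The motifs do not overlap each other. A match is a run of letters and not a measured site, and no binding or methylation was measured in these cells. No windows were matched for Cdkn1c and H19.

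Growth factor signalling around Igf2 was read from 26 tested genes of a list of 30. Igf1, which encodes the growth factor that shares its receptor with IGF2, rose, and it was 1 of 26 to pass in either direction, beside 0.762% of all 13774 named genes taken by 1 probe each. The median difference of the list was 0.19 and that of all named genes −0.10, with 15 of 26 positive beside 6266 of 13774. Without the slide term the median of the list was −0.012.

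The Igf1 probe A_51_P147942, printed 10 times on each array, was at 2.85, 3.46, 4.01, 2.96, 3.46, 2.65 and 3.87 on wild-type arrays 1 to 7 and at 5.69, 5.70, 5.86 and 5.91 on knockout arrays 1 to 4. All knockout arrays lay above all wild-type arrays, as for 4.32% of all probes tested. The difference was 2.27 ± 0.39 (SE; limma, adjusted p = 0.0387), or 4.84-fold, with 2.54 within slide 1 and 1.88 within slide 2. The second probe of the gene, A_52_P351116, differed by 1.25 ± 0.52 (adjusted p = 0.264) and overlapped.

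The call of Igf1 was close to the threshold. The difference was positive under all 30 alternatives, between 1.88 and 2.54, and 16 of them passed, with adjusted p between 0.000856 and 0.224. With sex as a further term the adjusted p was 0.149, and 0.0927 when wild-type array 4 was dropped in addition. Of the 11 runs that left out an array, those without wild-type array 4 or 6 passed, at 0.0279 and 0.0437. Dropping wild-type array 1, 2 or 3 gave 0.112, 0.104 or 0.224, dropping array 5 or 7 of that genotype gave 0.0522 or 0.0511, and dropping knockout array 1, 2, 3 or 4 gave 0.176, 0.0987, 0.115 or 0.107. Macrophages also express Igf1, and their marker mean was higher on every knockout array, 5.31 to 6.02, than on any wild-type array, 0.55 to 2.92; the part of this in the rise of Igf1 was not tested.

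**Figure D4:**
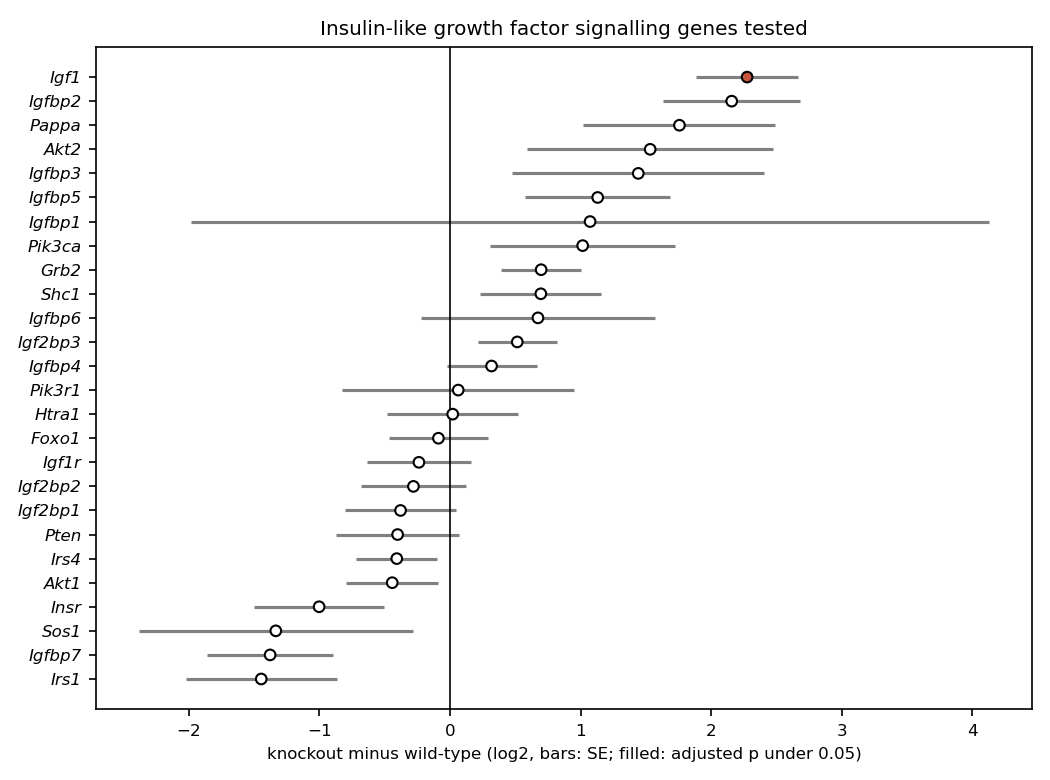
Knockout minus wild-type difference (log2, horizontal axis) of the 26 tested genes of insulin-like growth factor signalling, with bars for the SE of the limma fit. The filled point, Igf1 at 2.27, passed an adjusted p of 0.05 over all probes tested, and the 25 open points did not.

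The other genes of that list with the smallest p did not pass. Igfbp2, which encodes a binding protein for both growth factors, differed by 2.16 ± 0.53 (adjusted p = 0.0997), with 1.20 within slide 1 and 3.59 within slide 2. Igfbp7, a related secreted protein, was at 7.49 to 8.14 on the knockout arrays and 8.23 to 10.54 on the wild-type arrays and differed by −1.38 ± 0.48 (adjusted p = 0.202). Irs1, the substrate that relays the signal of the receptors, was at 1.81 to 2.89 and 3.43 to 5.84, a difference of −1.45 ± 0.58 (adjusted p = 0.249). Both lay lower on every knockout array than on any wild-type array, as did 2.79% of all probes tested. Within slide 1 and within slide 2, Igfbp7 had −0.48 and −2.73 and Irs1 −0.83 and −2.37. The receptor gene Igf1r, whose probe A_51_P474538 had levels of 3.74 to 3.94 on the knockout arrays and 3.34 to 5.08 on the wild-type arrays, differed by −0.24 ± 0.40 (adjusted p = 0.791).

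Imprinted genes of the same clusters as the members gave 0 calls among 17 tested, with a median of −0.41 and 7 of 17 positive. Of all 13774 named genes taken by 1 probe each, 0.762% passed and 6266 had a positive difference. These shares stand beside the counts of this list and of the lists below. The smallest p values belonged to Cd81, a tetraspanin gene of the Cdkn1c cluster, at −0.94 ± 0.39 (adjusted p = 0.265), and Ascl2, a transcription factor gene of that cluster, at −1.23 ± 0.54 (adjusted p = 0.284). Osbpl5 had 1.62 ± 0.78 and Slc22a18 1.08 ± 0.66. Cd81 was lower on every knockout array, 7.07 to 7.45, than on any wild-type array, 7.57 to 9.06, as were 2.79% of all probes tested. Its difference was −0.37 within slide 1 and −1.79 within slide 2. The placental growth regulator Phlda2, a neighbour of Cdkn1c, differed by −0.63 ± 0.50 (adjusted p = 0.539).

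Over the 7 wild-type arrays the levels of Cdkn1c and Phlda2 had a Pearson r of 0.569 (exact permutation p = 0.194, two-sided) and a Spearman rho of 0.5 (exact p = 0.267). After slide means were subtracted, over the 6 arrays of slides 1 and 3, r was −0.4 (exact p = 0.424), and without the 2 arrays farthest from the median it was 0.585 (exact p = 0.308). No relation was shown. Of 3 planned pairs this was the 1 computed, so no adjustment applies: Igf2 with H19 and Dlk1 with Meg3 each lacked a matched probe.

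Imprinted genes of other clusters gave 0 calls among 25 tested, with a median of −0.32 and 7 of 25 positive. Ube3a, the ubiquitin ligase gene, differed by −1.81 ± 0.53 (adjusted p = 0.141), Mcts2 by −0.99 ± 0.37 (adjusted p = 0.230) and Gnas, the gene of the stimulatory G protein, by 2.13 ± 0.86 (adjusted p = 0.251). Gnas was not well above background on wild-type array 3, and with that level raised its difference was 2.04. Within slide 1 and within slide 2, Ube3a had −0.88 and −3.21, Mcts2 −0.64 and −1.51, and Gnas 0.59 and at least 4.21. Gatm, which encodes an enzyme of creatine synthesis, was at 2.01 to 2.55 on the knockout arrays, above its −0.80 to 1.87 on the wild-type arrays, and differed by 1.49 ± 0.66 (adjusted p = 0.285). Its difference was 1.31 within slide 1 and 1.77 within slide 2. Mcts2 did not overlap either, with 2.26 to 2.65 on the knockout arrays and 2.93 to 3.98 on the wild-type arrays. Over all probes tested, 4.32% lay higher in the knockout arrays without overlap, as Gatm did, and 2.79% lower, as Mcts2 did.

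The Notch pathway, to which the protein of Dlk1 is related, gave 0 calls among 19 tested genes, with a median of 0.68 and 13 of 19 positive. The median was the difference of Lfng, which was not well above background on wild-type arrays 2 and 3. With those levels raised Lfng had −0.15. Hey2, at 0.36, had −0.22 with wild-type arrays 2 and 3 and knockout array 4 raised. The median and the count of positive genes thus rest in part on levels near background. Mfng, which encodes a glycosyltransferase that modifies Notch receptors, differed by 2.25 ± 0.54 (adjusted p = 0.0969), and the target genes Hes1 by 2.60 ± 0.71 (adjusted p = 0.125) and Hes5 by 2.76 ± 0.89 (adjusted p = 0.171). The receptor gene Notch3 had 1.65 ± 0.71 (adjusted p = 0.276). Hes1 and Hes5 were not well above background on wild-type array 3, and with those levels raised they had 1.73 and 2.36. The levels of Mfng, Hes1, Hes5 and Notch3 each overlapped between genotypes.

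Among 5 tested cyclin-dependent kinase inhibitors other than Cdkn1c there were 0 calls, and the median was 0.13. Cdkn1a, which encodes p21, differed by 1.91 ± 0.63 (adjusted p = 0.179) and Cdkn2b, which encodes p15, by 2.08 ± 0.69 (adjusted p = 0.184), where Cdkn1c had a negative difference. Cdkn1b, the gene of p27, had 0.13 ± 0.53 (adjusted p = 0.923), and Cdkn2d −0.04 ± 0.51 (adjusted p = 0.978).

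Genes that write or keep methylation at imprinted regions gave 0 calls among 10 tested, with a median of 0.12. Dppa3, which protects imprints in the early embryo, was at 0.27 to 0.45 on the knockout arrays and at −6.96 to −1.19 on the wild-type arrays, where 1 of 7 was well above background and none of those on slides 1 and 2. It was tested through its knockout levels, its difference is therefore given as a bound, at least 4.38, and its adjusted p was 0.0774. The methyltransferase gene Dnmt3a differed by 1.26 ± 0.37 (adjusted p = 0.140). Uhrf1, whose protein recruits the maintenance methyltransferase, was at 0.62 to 1.28 on the knockout arrays and 1.65 to 2.79 on the wild-type arrays. It differed by −1.06 ± 0.38 (limma, adjusted p = 0.207). Over all probes tested, 2.79% lay lower in the knockout arrays without overlap, as Uhrf1 did, and 4.32% higher, as Dppa3 did. Mbd3 had 1.37 ± 0.76 (limma, adjusted p = 0.385), or 0.70 with wild-type array 3, not well above background, raised. The 3 tested relatives of Plagl1 and Grb10 gave 0 calls: Grb14 had −0.81 ± 0.34 (adjusted p = 0.270), Plagl2 −0.66 ± 0.53 (adjusted p = 0.544) and Grb7 1.16 ± 1.00 (adjusted p = 0.575).

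**Figure D5:**
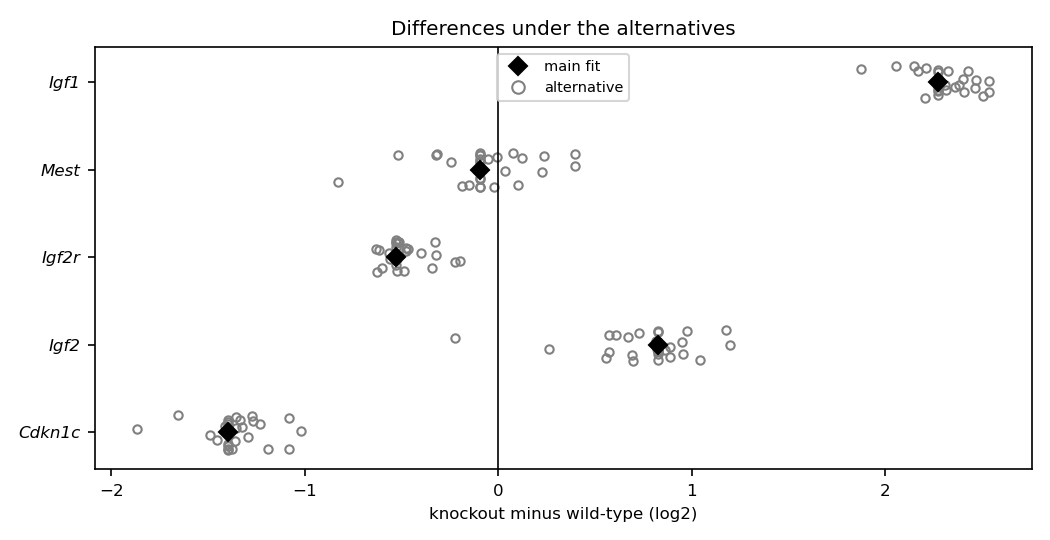
Knockout minus wild-type difference (log2, horizontal axis) of Igf1 and 4 members by their brightest probe: the diamond is the fit as described and each open circle is 1 of the 30 alternatives, shifted vertically at random for legibility. Cdkn1c (−1.87 to −1.02) and Igf2r (−0.63 to −0.20) stay below 0 and Igf1 (1.88 to 2.54) above it, while Mest lies on both sides and Igf2 has 1 alternative below 0.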

How the data were processed

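Sorted fetal adrenocortical cells of 11 mice were measured on 1 single-colour Agilent array each, and genotype, sex and age were taken from the labels, and the identity of each array in its file gave the slide. The deposited scanner files give the intensity of each spot as the background-subtracted processed signal, from Feature Extraction 10.1.1.1 on slides 1 and 2 and 10.5.1.1 on slide 3, per the file headers, where the submitters' processing notes name version 10.5.1.1. The authors also deposited a table of log2 values for the series. It matched the scaled scanner values, less the median of each probe, within 0.01 for 99.8% or more of probes on each array, with column medians from −0.166 to 0.901. How they made it: not given in the sources used here.

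Spots of a probe were averaged as log2 processed signal without outlier spots (77 to 164 per array, 0 saturated), and the 75th percentile over the 41174 non-control probes was subtracted. Names came through the accessions of the 3 design versions in the files and RefSeq's gene table (GRCm38.p6), which named 25377 probes, 92 of them for 2 genes. Probes well above background on at least 4 of 11 arrays, 25882, were fitted with limma 3.58.1 (R 4.3.3) on genotype plus slide (leaving 7 residual degrees of freedom), two-sided, and p was adjusted by Benjamini-Hochberg over all of them. Between 19066 and 26408 probes per array were well above background. Lists take 1 probe per gene, that with the highest mean. The fit was tested on simulated data over 25823 probes, with 3 false calls, and 0 calls when nothing was changed.

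The members and lists were chosen with earlier results of these data known. Every member was named, and of each list those past the threshold and otherwise up to 4 with the smallest p. Phlda2, Igf1r, Gpnmb, Trem2, Lyz1, Cyp21a1, Ddx3y, Lfng and Hey2 were named besides, after their values were seen. For Igf2 and Dlk1 the 3 most correlated genes were named. Promoter windows were matched for 7 of 9 members. Alternatives concerned slide, sex, replicate number, background, scaling, filters, the series table, the variance model and the omission of each array; normexp, at an offset of 50, used median spot signals. The fit with sex and without wild-type array 4 and the raising of levels not well above background were added after seeing the data. Each array held RNA of a different mouse, per the labels.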

Additional observations from a re-analysis of the deposited data

Results flagged for a closer look

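In 3 of 26 groups of member levels, 1 array lay far from the others by Dixon's criterion, which chance meets in about 1 of 20 groups. All 3 were wild-type array 3. The Igf2 probe A_51_P516833 was at −3.08 there, with the next wild-type level at 1.38 and the highest at 2.35. The Grb10 probe A_52_P115787 was at 1.73, with the next at 3.21 and the highest at 4.24. The Grb10 probe A_52_P40363 was at −4.44, with the next at −0.68 and the highest at 0.18. The levels of −3.08 and −4.44 were not well above background.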

How the results depend on the processing

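Of 352 recomputed differences of the 12 member probes, 323 kept their sign, 29 turned and 3 passed the threshold; Cdkn1c, Dlk1, Igf2r and the Igf2 probe A_51_P516833 kept their sign throughout. Signs turned without the slide term for Igf2 (A_51_P516826, −0.22), Peg3 (A_52_P235861, −0.054), Plagl1 (A_52_P532456, −0.48; A_51_P432034, −0.48) and Grb10 (A_52_P115787, −0.13), and with slide as a random block for Plagl1 (A_52_P532456, −0.11). Within slide 1 they turned for Peg3 (A_52_P235861, −0.29), Mest (0.39) and Grb10 (−0.51 and −0.21), and within slide 2 for Peg3 (A_51_P206037, 0.39, not well above background on wild-type array 3) and Plagl1 (A_52_P532456, −0.85). Mest was at 0.074 under normexp, 0.24 under quantile normalization, 0.035 with the percentile over probes above background on all arrays and 0.10 with sex and without wild-type array 4. Plagl1 (A_51_P432034) was at −0.086 under normexp. With array weights Peg3 (A_52_P235861) was at −0.083, Mest at 0.22 and Grb10 at −0.62 and −0.045. With each array left out in turn, Peg3 ran from −0.29 to 1.16 and from −0.55 to 0.086 by probe, Mest from −0.32 to 0.39 and Grb10 from −0.51 to 0.93 and from −0.21 to 1.85. The cause was not tested.

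The count of member probes past the threshold was 0 in all but 2 alternatives. It was 2 within slide 2, Igf2 (A_51_P516833, adjusted p = 0.0476) and Grb10 (A_52_P40363, adjusted p = 0.0461), where 2 arrays stand against wild-type array 3, which was not well above background for either probe and is assumed to vary like the knockout arrays. It was 1 with array weights, Cdkn1c. The count of all probes, 149, was 713 without the slide term, 546 with slide as a random block, 577 over slides 1 and 2, 0 within slide 1 (limma; 4748 at an unadjusted p under 0.05) and 1452 within slide 2. It was 23 with sex as a further term, 87 with wild-type array 4 also left out, 723 under normexp, 277 under quantile normalization, 439 over probes above background on all 11 arrays, 298 with a mean-variance trend, 3446 with array weights, and 10 to 562 with each array left out. The median over all probes moved from −0.12 to −0.28 under normexp and to 0.01 with the percentile over probes above background on all arrays.

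With the replicate number as a block in place of slide, 195 probes and 0 member probes passed, and Peg3 (A_51_P206037) was at 0.0035. The correlations of same-numbered arrays were 0.184, 0.203, 0.0159 and 0.176, so the numbers were not taken as pairs.

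List medians moved without the slide term to −0.012 for growth factor signalling and under normexp to 0.31 for the Notch pathway. Without wild-type array 3 they were −0.12 for other imprinted genes, 0.56 for the cyclin-dependent kinase inhibitors and −0.26 for the relatives of Plagl1 and Grb10. The relation of Cdkn1c with Phlda2 was −0.4 with slide means subtracted.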
